A study of Gasterosteus aculeatus with 34 samples.

Results

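The comparison set the telencephalon library of each male threespine stickleback (Gasterosteus aculeatus) against the diencephalon library of the same male. The libraries were chosen by the region and male number in their titles, which gave 17 pairs and took in all 34 of the 34 libraries of the series. The males were laboratory-reared F1 offspring of wild-caught fish of the white ecotype, moved to tanks of their own before the trials. Their last trial was a control with empty flasks (C, 4 males), a gravid female in a flask (F, courtship opportunity, 4 males), a rival male in a flask (M, territorial challenge, 5 males) or both (MF, tradeoff, 4 males). Every male, controls included, had met all 4 treatments earlier in a random sequence, and the tissue was taken an hour after the last trial. Age is not given in the sources used here. Each library came from a dissected piece of tissue that mixes many cell types, so that fewer cells of a type and less RNA per cell cannot be told apart.

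The telencephalon is the front of the fish forebrain and holds the pallium, which includes counterparts of the hippocampus and amygdala, and the subpallium, which includes a counterpart of the striatum and septum. The diencephalon lies behind it and comprises the thalamus, the habenula and the hypothalamus, whose neuroendocrine cells act on the pituitary. Parts of both belong to the network of brain areas that handles social behaviour in vertebrates. The files give Ensembl identifiers and gene prediction names without symbols, and 0 of 22295 identifiers matched the RefSeq table of fGasAcu3.hap1.1. The region labels could therefore not be checked against known marker genes, and genes are given by identifier.

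Reads counted on gene models came to 22802875 to 36656215 per telencephalon library and 16522465 to 34384860 per diencephalon library. Reads aligned to more than a single place, which are counted for no gene, made up 11.4% to 21.9% of a telencephalon library and 3.72% to 4.73% of a diencephalon library. In 17 of 17 males the telencephalon had the larger share, so it moved with the region and cannot be told apart from it in any gene below. The pairs of 2 males lay closest together, as the positions between the regions show. On a scale where the mean diencephalon of the other males is 0 and their mean telencephalon is 1, the telencephalon library of control male 304 lay at 0.499 and its diencephalon library at 0.146. The libraries of challenge male 322 lay at 0.770 and 0.0626. The remaining 15 males had telencephalon libraries at 0.801 to 1.14 and diencephalon libraries at -0.0678 to 0.0261. The telencephalon library at 0.801, that of challenge male 298, lay near that of male 322. The next was at 0.930, in courtship male 299. All libraries of these 15 males lay nearer to their own region, and the telencephalon library of male 304 lay about midway.

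**Figure D1:**
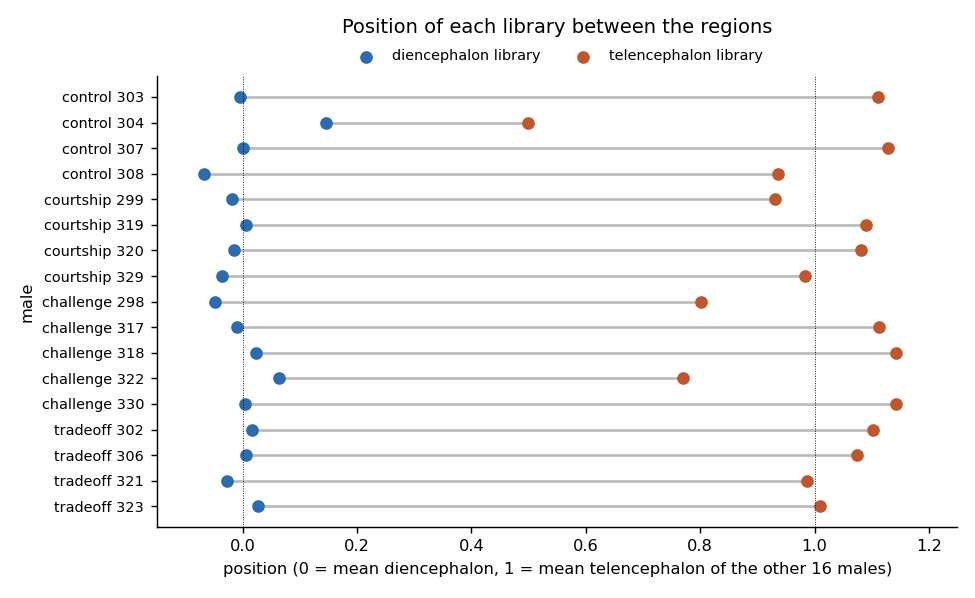
Position of every library on the axis between the mean diencephalon (0) and the mean telencephalon (1) of the other 16 males, over the 16862 genes that averaged 1 CPM (a gene's counts scaled to the same library size) or more. Rows are males, ordered by treatment, and the line joins both libraries of a male. The pair of male 304 is the closest (0.499 and 0.146), followed by that of male 322 (0.770 and 0.0626).

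Most genes differed between the regions. Of 18012 genes tested with the male as a block, 7057 were higher and 7545 lower in the telencephalon (edgeR quasi-likelihood test, Benjamini-Hochberg adjusted p under 0.05), which is 39.2% and 41.9% of the genes tested, so that 81.1% were called. Differences were mostly small, with a median absolute log2 fold of 0.36, and 90% of genes stayed under an absolute log2 fold of 1.21. By over 2-fold, 807 called genes were higher (4.48% of those tested) and 1749 lower (9.71%). A test against a 2-fold difference rather than against none called 532 higher (2.95%) and 1105 lower (6.13%). Without male 304 these last counts were 615 and 1194, and 856 and 1796 called genes were past 2-fold. The direction split rests on the scaling. TMM factors gave a median log2 fold over all genes of -0.02 with 48.3% of calls higher in the telencephalon. Plain library totals gave a median of -0.16, with 5225 genes called higher and 9512 lower (35.5% higher).

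Direction followed the abundance of the gene. Genes were classed by their mean CPM over the 34 libraries, and in the classes under 10 CPM most calls were lower in the telencephalon, while from 100 CPM most were higher. Of 1166 tested genes under 1 CPM, 161 were higher and 568 lower. The low-count filter had kept these 1166 of 4735 models under 1 CPM, against 5032 of 5048 from 1 to 10 CPM. It grouped libraries by region, so a gene high enough in a single region could pass. Shares and sizes under 1 CPM are therefore in part set by the filter. The class of 1 to 10 CPM had 1046 higher and 2726 lower of 5032 tested. In the middle class of 10 to 100 CPM, 4500 were higher and 3765 lower of 9768, a lean whose median turned below 0 with library totals. Between 100 and 1000 CPM the split was 1312 higher against 471 lower of 1987 tested, and among the 59 genes of 1000 CPM and over it was 38 against 15. The share called also went up over these classes, at 62.5%, 74.96%, 84.6%, 89.7% and 89.8%. The size of the differences did not: the median absolute log2 fold was 0.70, 0.49, 0.30, 0.35 and 0.33. The SD of a gene's difference over males was lower in the abundant classes, with medians of 0.44, 0.35, 0.17, 0.13 and 0.14. Smaller differences can be called there, so the shares called do not show that abundant genes differ more often.

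**Figure D2:**
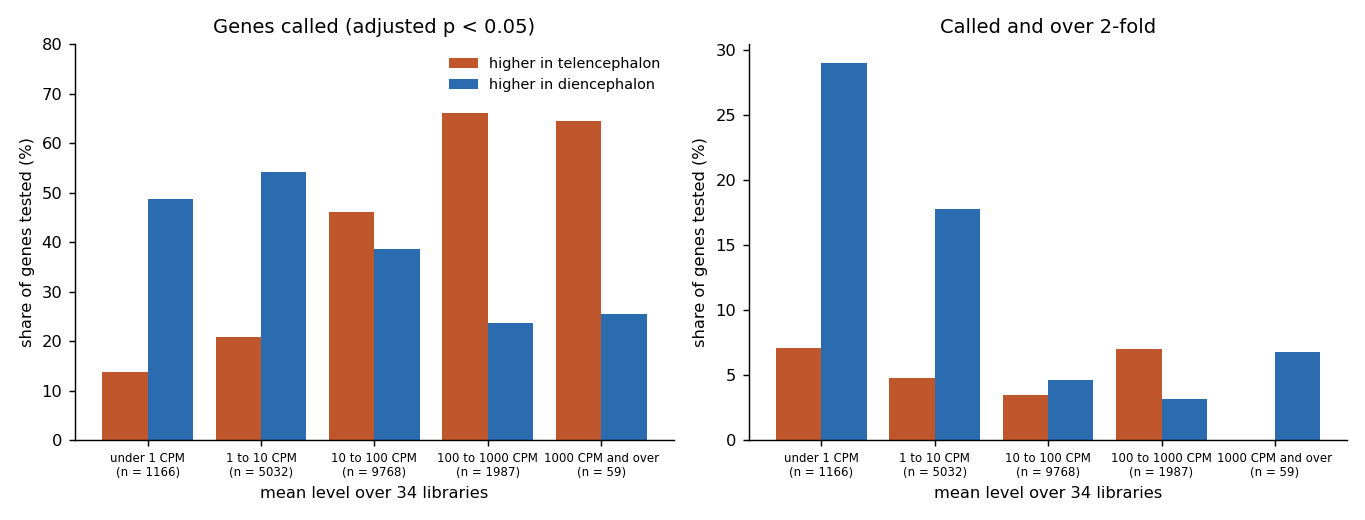
Share of tested genes called (left) and called with a fold of over 2 (right), in percent, by class of mean CPM, with genes higher in the telencephalon in orange and genes higher in the diencephalon in blue. Under 1 CPM the low-count filter by region favours large differences among the genes tested. On the left blue exceeds orange in the 2 classes under 10 CPM and orange exceeds blue from 10 CPM (with plain library totals the median difference of the class of 10 to 100 CPM fell below 0); on the right the blue bar is the taller except between 100 and 1000 CPM, where orange reaches 6.995% and blue 3.22%.

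Large differences showed the same lean at low abundance. Under 1 CPM, 83 genes were called higher and 338 lower by over 2-fold, which is 7.12% and 29.0% of the genes tested there. The filter by region favours large differences among the genes tested in that class, so these shares do not hold for all its models. Between 1 and 10 CPM the counts were 242 and 893. In the class of 10 to 100 CPM they came to 343 and 450, and only from 100 to 1000 CPM did more genes exceed 2-fold upward in the telencephalon, with 139 against 64. Of the 59 most abundant genes, 0 were higher and 4 lower by over 2-fold. Leaving out male 304 gave 252 and 926 genes between 1 and 10 CPM and 150 and 67 between 100 and 1000 CPM.

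The lean by abundance was present in every male. The median log2 difference of the genes of 1 to 10 CPM, taken as telencephalon minus diencephalon of log2(CPM + 0.5), was below 0 in 17 of 17 males (-0.36 to -0.16, median -0.25). In genes of 100 to 1000 CPM it was above 0 in 17 of 17 males (0.19 to 0.28, median 0.24). The gap between both medians was 0.48 ± 0.08 (SD, n = 17 males) and ran from 0.35 in male 304 to 0.62 in male 330 (exact sign-flip permutation test, two-sided, p = 1.53e-05, the smallest these flips can give; this measure was chosen after the classes had been seen). With plain library totals the gap was 0.47 ± 0.07 and with libraries thinned to equal depth 0.48 ± 0.08, above 0 in 17 of 17 males each time. The median of the class of 10 to 100 CPM, however, changed sign with the scaling, from 0.04 with TMM to -0.10 with library totals. That of the class of 1000 CPM and over was above 0 in 17 males with TMM and in 15 with library totals.

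**Figure D3:**
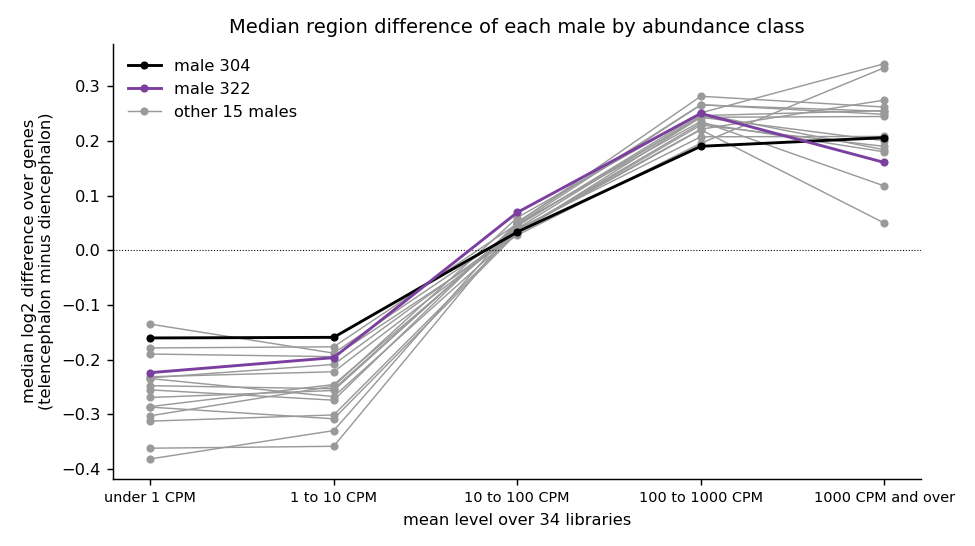
Median log2 difference (telencephalon minus diencephalon, TMM-scaled CPM with 0.5 CPM added) over the genes of each abundance class, with a line for each of the 17 males. Every line, including those of males 304 (black) and 322 (purple), runs from below 0 under 10 CPM to above 0 from 100 CPM; with library totals the class of 10 to 100 CPM falls below 0 in all 17.

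Counts in the telencephalon fell on fewer gene models. Rarefied to the smallest total of 16522465 counts, a telencephalon library detected 19406 ± 122 gene models and a diencephalon library 19919.5 ± 48.2 (SD, n = 17 each), fewer in the telencephalon of 17 of 17 males. Models with a mean under 10 CPM took 2.13% ± 0.109 of telencephalon counts and 2.81% ± 0.084 of diencephalon counts, again lower in 17 of 17 (both exact sign-flip permutation p = 1.53e-05, adjusted 2.04e-05 over 8 measures). Genes of 100 to 1000 CPM took 46.0% ± 0.72 of telencephalon and 44.0% ± 0.54 of diencephalon counts, higher in 17 of 17 males. The most abundant models that together held 50% of the counts numbered 1001 ± 50.6 in the telencephalon and 1090 ± 67.5 in the diencephalon, fewer in 16 of 17 males (adjusted p = 3.49e-05, exact sign-flip permutation test). The share of the 100 most abundant models did not differ beyond its spread, at 21.0% ± 1.16 and 20.9% ± 1.01 (difference 0.0928 points ± 0.934; exact sign-flip permutation p = 0.70).

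The more abundant the gene, up to 1000 CPM, the more often all males had the same direction. Of the 18012 genes tested, of which 81.1% were called, 4139 were higher in the telencephalon of all 17 males and 3699 were lower in all 17, and 10211 had at least 16 males on the same side. The share with 17 of 17 was 15.6% under 1 CPM, 32.5% from 1 to 10 CPM, 48.3% from 10 to 100 CPM and 63.6% from 100 to 1000 CPM. In these classes counting error made up a median of 37.6%, 30.6%, 21.6% and 5.25% of the variance of the difference. The rise therefore does not measure how alike the males were alone. Libraries of the regions did not overlap at all in 2097 genes that were higher in the telencephalon and 1348 that were lower. Together these are 3445 genes, 19.1% of those tested. Fewer libraries can only overlap less, and with any male left out the count was 3488 to 4009, the most without male 304. Of the 2556 called genes past 2-fold, 1974 had 17 of 17 males on the same side and 100 had at most 14. Few of them exceeded 2-fold in every male: 47 of the 807 higher genes and 57 of the 1749 lower genes did so. In at least 16 males 287 and 272 exceeded it, and in at least 9 males 676 and 1245. The count over every male includes male 304, in which 12.2% of the genes past 2-fold on average in the others exceeded it. The genes were chosen by the fitted fold. The fold in each male was taken on log2(CPM + 0.5), which understates changes of low genes. Of the lower genes 338 averaged under 1 CPM and 893 from 1 to 10 CPM, and of the higher genes 83 and 242. Neither these counts nor their contrast between directions therefore measure the spread over males alone.

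A single male against the other 16 was most often male 304. Among 2373 genes with 16 males on one side and 1 on the other, male 304 was the exception in 610 (25.7%), male 322 in 383 (16.1%) and male 298 in 290 (12.2%). Each of the other 14 males was the exception in 39 to 116. Among the 345 such genes called past 2-fold, male 304 was the exception in 139 and male 322 in 83.

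No gene was off in all libraries of a region and present throughout the other. Present means at least 1 CPM in every library of a region, and most such genes were present in both. Of 15185 genes present in the telencephalon and 15924 present in the diencephalon, 0 and 0 stayed under 0.1 CPM in all 17 libraries of the other region. Under 1 CPM in all of them were 15 and 21 genes. Without male 304 these became 25 and 73, and 5 genes present in the diencephalon were then under 0.1 CPM in every telencephalon library. By the median rather than the highest library, 5 genes present in the telencephalon and 47 present in the diencephalon lay under 0.1 CPM in the other region.

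Named here are the called genes with the largest minimum difference over the 17 males, in each direction from 1 to 10 CPM and from 100 CPM. The same direction in every male is therefore given by the choice, which also favours separate ranges and small adjusted p. They are not the least variable genes: the SD of their difference over males was 0.27 in ENSGACG00000004949, 0.34 in ENSGACG00000015450, 0.69 in ENSGACG00000017661 and 0.45 in ENSGACG00000006710. ENSGACG00000015450 was at 166.5 to 226.4 CPM in the telencephalon (median 193.6) and at 27.8 to 55.4 CPM in the diencephalon (median 40.5), with no overlap. Its log2 fold was 2.25 (SE 0.08, edgeR adjusted p = 1.2e-14), and the smallest difference of log2(CPM + 0.5) in a male was 1.6, in male 329. ENSGACG00000004949, the less abundant gene that was higher in the telencephalon, was at 2.27 to 6.65 CPM there (median 3.34) and at 0.121 to 1.47 CPM in the diencephalon (median 0.406). Its diencephalon values rest on 3 to 28 reads per library, and every telencephalon library lay above every diencephalon library (log2 fold 3.07, SE 0.16, edgeR adjusted p = 1.38e-13).

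ENSGACG00000006710, the abundant gene that was lower in the telencephalon, was there at 22.6 to 83.9 CPM (median 51.6) against 112 to 372 CPM in the diencephalon (median 186). The ranges did not overlap (log2 fold -2.08, SE 0.11, edgeR adjusted p = 5.19e-12). ENSGACG00000017661 had 0 reads in 13 of 17 telencephalon libraries and 18 reads in all 17 together, against 1814 reads in the diencephalon, where it ranged from 1.84 to 8.43 CPM (median 4.45). Its highest telencephalon library, that of male 304 at 0.433 CPM, lay below the lowest diencephalon library (fitted log2 fold -6.77, SE 0.44, edgeR adjusted p = 1.8e-11). Its size rests on those 18 reads and most on the library of male 304: the fitted log2 fold was -7.92 without that male, and -8.37 in DESeq2 with all males. Fitted on a single treatment, it ran from -5.59 in the control males to -9.92 in the challenge males.

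**Figure D4:**
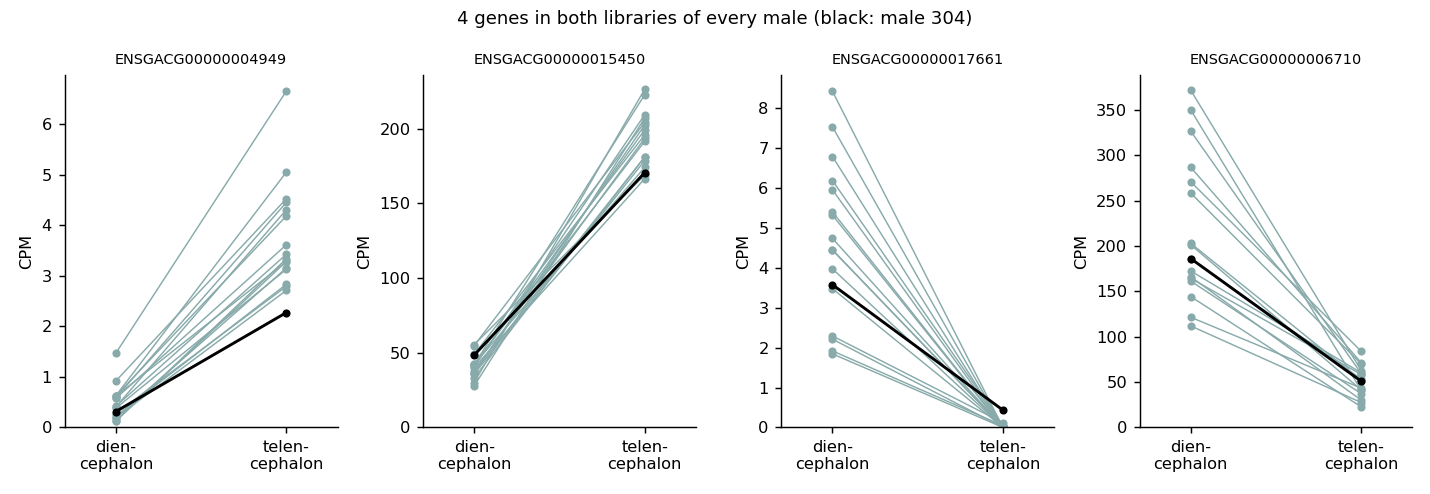
CPM of 4 genes in the diencephalon and telencephalon library of each of the 17 males, joined by a line per male, on linear axes from 0 (black: male 304). In each panel the lines run the same way in 17 of 17 males, which the choice of these genes fixed in advance. The values of the regions do not overlap, which that choice favours.

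How far apart the regions lay differed between males. The regression of a male's differences on the mean of the other 16 had a slope of 0.35 in male 304, 0.71 in male 322, 0.85 in male 298 and 0.95 to 1.13 in the other 14 males (16862 genes of at least 1 CPM, over genes, with no test). Of the 1781 to 1918 genes in which the other males differed by over 2-fold on average, 92.8% kept their direction in male 304 and 94.0% in male 322, against 98.3% to 99.8% in the rest. The same genes exceeded 2-fold in 12.2% of cases in male 304 and in 49.9% in male 322; in the remaining males the share was 65.1% to 90.7%. Measured by the SD over genes of its deviation from the region mean, the telencephalon library of male 304 deviated by 0.46 and its diencephalon library by 0.25, near the median diencephalon library of 0.26.

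The spread of the difference over males fell from the class of 1 to 10 CPM to that of 100 to 1000 CPM. The SD over 17 males of a gene's log2 difference had a median of 0.44 under 1 CPM (quartiles 0.39 and 0.52), 0.35 from 1 to 10 CPM, 0.17 from 10 to 100 CPM, 0.13 from 100 to 1000 CPM and 0.14 from 1000 CPM. The order of the lowest classes rests on the pseudocount: with 2 CPM added the median was 0.19 under 1 CPM and 0.24 from 1 to 10 CPM, and with 0.1 CPM added 0.79 and 0.41. Counting error made up a median of 37.6%, 30.6%, 21.6%, 5.25% and 0.529% of the variance in these classes. From 1 CPM up, genes past 2-fold varied more between males than the others of their class. Their median SD was 0.48 against 0.32 from 1 to 10 CPM, 0.38 against 0.16 from 10 to 100 CPM and 0.30 against 0.12 from 100 to 1000 CPM. Without male 304 the values for genes past 2-fold were 0.43, 0.29 and 0.22. The 4 genes past 2-fold from 1000 CPM had 0.75 against 0.13. Under 1 CPM the medians were 0.45 and 0.44, and 0.435 and 0.441 without male 304, so the order turned. A male with a low slope on the others adds more SD to genes of a larger fold. Males 322 and 298, with slopes of 0.71 and 0.85, were kept in these values. Counting error was not compared between genes past 2-fold and the others, and how much either adds was not tested.

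**Figure D5:**
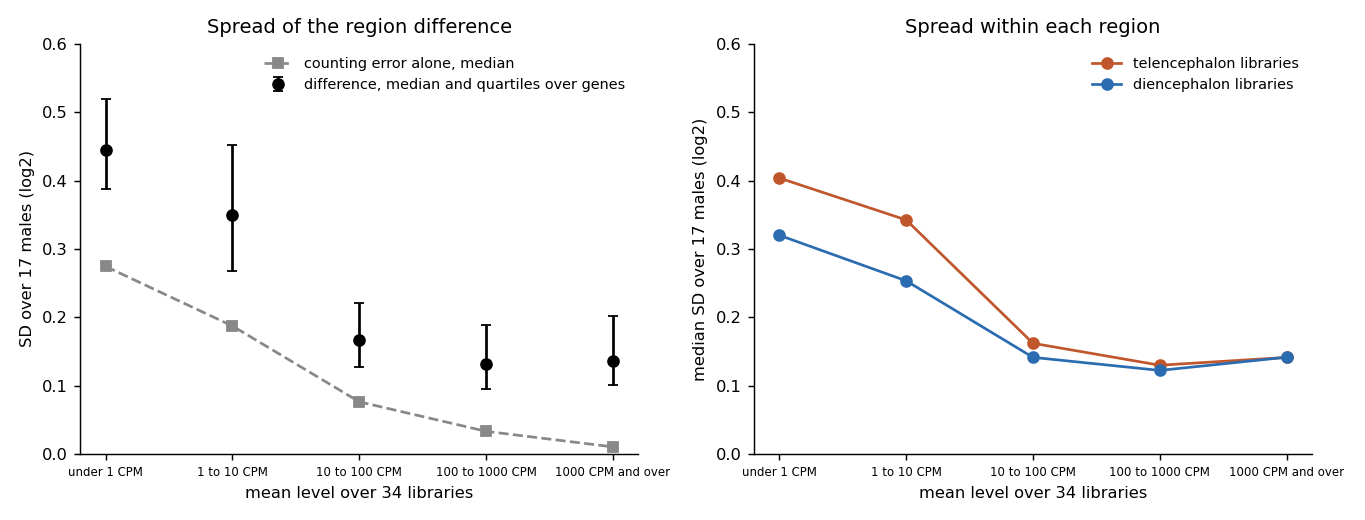
Left, SD over 17 males of the log2 region difference by abundance class (median and quartiles over genes) with the median SD that counting error alone gives. Right, the median SD over males of log2 CPM within the telencephalon and within the diencephalon libraries. With the 0.5 CPM added here, both fall until the class of 100 to 1000 CPM (with 2 CPM the left value under 1 CPM lies below that of 1 to 10 CPM), and the telencephalon exceeds the diencephalon most between 1 and 10 CPM (0.34 and 0.25).

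The telencephalon libraries varied more between males than the diencephalon libraries, above all in genes of low abundance. The SD over males was larger in the telencephalon in 71.4% of genes tested, with 80.8% from 1 to 10 CPM and 59.3% from 100 to 1000 CPM. It was over 2 times larger there in 1217 genes, and over 2 times larger in the diencephalon in 78. Without males 304 and 322 the share was 68.2% and the counts were 1051 and 141. Without male 298 alone the share was 66.97%, the lowest with any male left out. The counting SD from 1 to 10 CPM was 0.132 in the telencephalon and 0.131 in the diencephalon (medians), where the SD over males was 0.34 and 0.25.

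Both regions of a male shared part of their deviation. A gene's levels correlated over the 17 males between the regions with a median r of 0.37 (a description; both libraries come from the same fish), and r was above 0 in 84.3% of genes. The median rose from 0.22 under 1 CPM to 0.45 from 100 to 1000 CPM. Region accounted for a median of 44.5% of a gene's variance of log2 CPM over the 34 libraries, the male for 35.7% and the rest for 13.98%. These are shares of sums of squares, not corrected for the number of terms. Without any male effect the male share would be expected to match that of the rest, and it also contains the treatment. Region took 19.6% under 1 CPM, 33.4% from 1 to 10 CPM, 49.5% from 10 to 100 CPM and 66.9% from 100 to 1000 CPM. Over genes, the deviations of a male's libraries from the region means correlated with an r of 0.23 to 0.53 in 16 males and -0.04 in male 304. As a paired design, the fit with the male as a block called 14602 genes where the fit with treatment as covariate and no replicate block called 13561, of which 13511 were shared, all in the same direction.

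Nearly all genes past 2-fold after one treatment had the same direction after each of the others. Fitted alone, the control, courtship, challenge and tradeoff males called 48.1%, 63.3%, 58.4% and 61.9% of the genes tested, and 1874, 2622, 2391 and 2727 genes (10.4%, 14.6%, 13.3% and 15.1%) were called past 2-fold. These fits share no males. A gene called past 2-fold after one treatment had the same direction after each other treatment in 99.25% to 99.95% of cases over the 12 ordered pairs. The control list, which includes male 304, shared 1568 to 1612 genes with each of the others, 83.7% to 86.0% of its own genes and 59.1% to 65.6% of theirs. The courtship, challenge and tradeoff lists shared 1993 to 2128 genes pairwise, 73.3% to 83.6% of each list. Without male 304 the control males called 1775 genes lower and 954 higher past 2-fold, up from 1223 and 651. A test of region by treatment with the male as a block called 0 of 18012 genes (edgeR quasi-likelihood F test), with 441 genes at an unadjusted p under 0.05. DESeq2's likelihood ratio test called 0 with 437. Both counts lie below the share of 0.05 that chance alone would give. A p that misses the threshold does not show that the difference is the same after every treatment.

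Most models of each identifier class were called, at shares near or below the 81.1% of all genes tested. Of 17300 Ensembl genes tested 81.3% were called, of 423 gene models on chrY 73.0%, of 267 predicted models elsewhere 77.5% and of 22 alternative genes 81.8%. Direction was the same in 17 of 17 males in 43.8%, 37.1%, 38.2% and 45.5% of the genes tested. Of the chrY models 213 were called higher and 96 lower in the telencephalon, against 6749 and 7319 of the Ensembl genes. Predicted models elsewhere had 87 higher and 120 lower, and alternative genes 8 and 10. The spread over males had a median SD of 0.21 in Ensembl genes, 0.25 in chrY models and 0.33 in predicted models elsewhere. Reads of chrY models with near-identical copies elsewhere could be split or dropped, so their values are uncertain.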

How the data were processed

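RNA of the telencephalon and diencephalon of 17 males was sequenced from stranded mRNA libraries, per the labels' protocols. The authors deposited raw read counts per gene model (22295 models), and the submitters' processing notes name STAR and HTSeq. Tool versions, the build, the gene annotation used and whether strand was counted were not found in the labels or files. Library sizes and tests leave out the 5 summary rows. Reads with no feature made 38.5% ± 1.03 of a telencephalon and 35.3% ± 1.09 of a diencephalon library (SD, n = 17), not-unique reads 19.3% ± 2.45 and 4.10% ± 0.264, ambiguous reads 0.631% ± 0.0313 and 1.17% ± 0.0745.

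Groups and male numbers came from the titles. The numbers pair the libraries because both come from the same fish. Deviations from the region means correlated within a male with a median r of 0.41 over genes, and with -0.04 in male 304. No r between libraries of different males is given beside it, so it does not check the pairing. The 56 pairs of libraries of the same region and treatment had chi-square values of 12.2 to 97.6 per degree of freedom, so none of these pairs was a duplicate. Libraries of different regions or treatments were not compared in this way. edgeR 4.0.16 in R 4.3.3 was used with TMM factors, filterByExpr, the robust quasi-likelihood F test and glmTreat for the test against 2-fold, and limma 3.58.1 and DESeq2 1.42.0 as alternatives. The low-count filter of filterByExpr grouped libraries by region. Standard errors are the log2 fold divided by the square root of F. CPM were computed with TMM factors, and per-male differences on log2(CPM + 0.5), which understates changes of low genes. Counting variance follows the delta method with the 0.5 CPM included. On simulated counts for the region comparison (17869 genes, 200 changed) 193 changes were recovered with 5 false calls. The fit was not tested on counts in which most genes change, whereas 81.1% of the genes tested were called in the region comparison. Intervals and errors cover counting only where stated, and reads without molecular identifiers are not independent molecules.

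Named genes were the called gene with the largest smallest difference over 17 males, in each direction, from 1 to 10 CPM and from 100 CPM. Lists of forebrain genes and of markers of other cell types need symbols and were not used. The comparison, classes and lists were chosen with earlier results of these data known.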

Additional observations from a re-analysis of the deposited data

Results flagged for a closer look

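Values far from the other members of their group of 4 or 5 were looked for in 88 sets of library measures, male profiles and levels of the named genes, and 9 were found. Chance gives about 1 in 20 sets, and sets of the same male are not independent.

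Control male 304 was low in the slope of its region differences on those of the other males (0.352, other controls 1.01 to 1.13) and in their correlation over genes (0.668, others 0.913 to 0.936). The SD of what the mean of the other males left unaccounted for was high, at 0.5683 (others 0.313 to 0.354). Its telencephalon library also held ENSGACG00000017661 at 0.433 CPM, where the other control telencephalon libraries were at 0 to 0.0459 CPM.

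The telencephalon library of control male 307 detected 19208.3 gene models at equal depth, and the other controls 19545 to 19593.5. ENSGACG00000004949 was at 1.47 CPM in the diencephalon of control male 303 (others 0.191 to 0.379 CPM). ENSGACG00000015450 was at 49.0 CPM in the diencephalon of tradeoff male 323 (others 40.1 to 41.6 CPM). ENSGACG00000017661 was at 0.116 CPM in the telencephalon of courtship male 319 and at 0.0432 CPM in that of tradeoff male 323. The other telencephalon libraries of each group had 0 reads of it. Among libraries at 0 any read stands apart, so the chance rate given above does not apply to these sets. This gene had 18 reads in all 17 telencephalon libraries together.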

How the results depend on the processing

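The count of 14602 genes called stayed within 1.5 times under 30 of 31 settings. A similar count does not mean the same genes. With plain library totals 14737 genes were called, of which 12873 were shared with the main fit and 12770 had the same direction. Counts of genes with all males in one direction and the spread from 1 CPM up stayed within 1.5 times under every setting run. For the named genes this limit was met by the log2 fold, which allows far larger changes of the fold itself. The log2 fold of ENSGACG00000017661 ran from -5.59 (controls alone) to -10.07 (challenge males without male 322). As a paired analysis, the male is the block, and no replicate block gave 13561 genes. Leaving out each male gave 14382 to 14528 genes, DESeq2 15402, limma voom 14681, no low-count filter 15435 and thinned libraries 14098. The exception was the control males alone, with 8629 genes; the test against 2-fold called 1637 genes with all males, 1 in the controls alone and 802 in the challenge males alone. Without male 304 the controls had 1239 and without male 322 the challenge males 1121. With each male left out this test called 1552 to 1809 genes. The fits on a single treatment have fewer samples. Chosen after seeing the data were the test against 2-fold within a treatment, leaving out male 304 or 322 within one, leaving out both (14499 genes called, 1883 by the test against 2-fold), and library totals for the counts of calls. Also not planned were thinned libraries for the test against 2-fold, for all males in one direction, for regions without overlap and for the spread within regions. The same holds for library totals for the spreads and slopes, and for several settings of the named genes.

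Under 1 CPM the spread over males rests on the pseudocount, at 0.44 with 0.5 CPM, 0.79 with 0.1 CPM and 0.19 with 2 CPM; with 2 CPM it lies below the 0.24 of the class of 1 to 10 CPM. The difference in the share of the 100 most abundant models ran from -0.0624 points (without male 298) to 0.175 points with each male left out; the cause was not tested. Region by treatment called 0 genes under all 20 alternatives, with 248 at an unadjusted p under 0.05 without the block and 354 to 636 with each male left out. These counts too lie below the share of 0.05 that chance alone would give. Reads behind genes under 1 CPM limit what those values can show.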
